A study of Mus musculus with 8 samples.

Results

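The regions described here are H3K4me3 clusters of untreated macrophages that carried H3K27me3 before stimulation and were listed with both histone marks again at 4 h. They were chosen by overlap. A cluster of the 0 h H3K4me3 list was a member when it shared at least 1 bp with a 0 h H3K27me3 position, a 4 h H3K4me3 cluster and a 4 h H3K27me3 position, with each position widened by 250 bp to either side. Of the 21418 H3K4me3 clusters at 0 h, 4610 (21.5%) were members. The others were 13192 clusters listed at both times with no H3K27me3 at either (called unmarked below), 367 with H3K27me3 at 0 h only, 439 with H3K27me3 at 4 h only, and 2810 that overlapped no 4 h H3K4me3 cluster. All values of the 4 histone lists took part in the choice or come from the same contrast as it, so they are given as a description. RNA polymerase II (Pol II) and Jmjd3 did not.

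H3K4me3 is a histone mark of promoters, laid down by Trithorax-group methyltransferases, and H3K27me3 is the repressive mark written by the Polycomb complex PRC2. Promoters that carry both are called bivalent; many belong to developmental regulators that are silent, or transcribed at a low level, in the cell type at hand. Jmjd3 (Kdm6b) is a demethylase that removes methyl groups from H3K27 and is induced in macrophages by inflammatory stimuli. The lists name no genes, and no annotation of their genome build was used, so regions are named by position (mm8), and whether a given cluster is an annotated promoter is not analysed here. ChIP-seq of a cell population also cannot tell apart both marks on one chromosome copy and each mark in different cells or on different copies.

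The cells were primary macrophages grown from the bone marrow of female Fvb mice 6 to 8 weeks old, either left untreated (0 h) or given LPS (lipopolysaccharide, from the wall of Gram-negative bacteria) together with the cytokine IFNγ (interferon gamma). H3K4me3 and H3K27me3 were mapped at 0 and 4 h, Pol II at 0, 2 and 4 h, and Jmjd3 at 2 h of stimulation. Each of the 8 groups was 1 library. The labels put every library above 10000000 uniquely mapped tags, and give no exact depth. With 1 library a group, changes over time have no replicate to check them against, and p-values are not given. The only value that a list holds for a peak is its overlap count, a whole number, called the count here. It was not scaled to depth, so counts at different times are set side by side. Brackets hold exact 95% Clopper-Pearson intervals for shares, order-statistic 95% intervals for medians, and 95% Wald intervals for differences of shares. All cover counting error only, and neighbouring clusters are not independent.

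Most clusters that carried H3K27me3 at 0 h kept both marks. Clusters with H3K27me3 at 0 h numbered 5249, of which 4977 were listed with H3K4me3 at 4 h. Of these 4977, 4610 (92.6%, 91.9 to 93.3) also had H3K27me3 at 4 h. Counted by position and not by cluster, 42823 of all 59684 H3K27me3 positions at 0 h were listed again at 4 h. The 4 h H3K27me3 list was the longer, by a ratio of 1.49. H3K4me3 itself was listed again at 4 h for 94.8% (94.2 to 95.4) of the 0 h clusters with H3K27me3 and for 84.3% (83.7 to 84.9) of those without. Near the limit of the rule lay 49 members whose H3K27me3 position fell only in the 250 bp margin at 0 or 4 h, with a median H3K4me3 count of 30 and a median width of 1488 bp. Just outside it lay 56 clusters that would have been members with a margin of 500 bp, with a median count of 28 and a median width of 1706 bp. Pol II at 0, 2 and 4 h was listed in 20.4, 16.3 and 18.4% of the former and in 30.4, 32.1 and 33.9% of the latter.

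Members usually held 1 or 2 H3K27me3 positions, and the number was much the same at both times. At 0 h, 2230 members held exactly 1 position, 1375 held 2, 603 held 3, 244 held 4 and 158 held 5 or more. At 4 h these numbers were 2017, 1468, 721, 235 and 169. The median was 2 positions at either time. Per kb of the 0 h cluster width, which was used for both times, it was 0.628 positions at 0 h and 0.658 at 4 h. The number was equal at both times in 2873 members (62.3%) and differed by at most 1 in 4399 (95.4%, 94.8 to 96.0). More positions at 4 h were listed in 1011 members (21.9%), beside 27.3% of all 0 h clusters with H3K27me3 at either time, and fewer in 726 (15.7%), beside 19.8%. Since the rule used that contrast, nothing is read from these pairs.

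**Figure D1:**
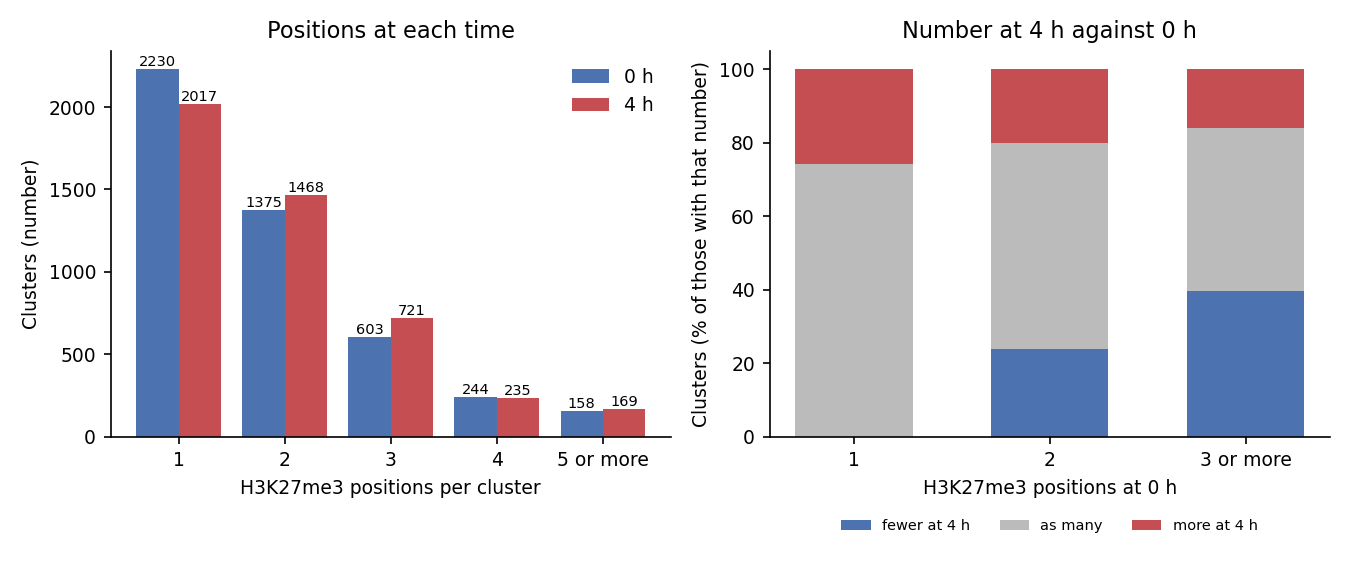
Left, number of member clusters (y axis) by the number of H3K27me3 positions they held (x axis) at 0 h (blue) and 4 h (red). Right, percent of members whose number of positions was lower, equal or higher at 4 h, by their number at 0 h; a member with 1 position could not have fewer, and 74.3% of those kept 1.

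The H3K27me3 list as a whole was longer at 4 h, and the members took little part in that. It held 59684 positions at 0 h and 89093 at 4 h, a ratio of 1.49. Inside members the numbers were 8710 and 9051, a ratio of 1.04, and outside every 0 h H3K4me3 cluster they were 50179 and 79042, a ratio of 1.58. Members thus held 14.6% of all listed positions at 0 h and 10.2% at 4 h. A member had to hold a position at both times, and the depth of the libraries is unknown, so these ratios are descriptions of the lists.

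H3K27me3 counts in members were high for their list. The tallest position of a member had a median count of 36 (quartiles 18 and 59) at 0 h and 47 (quartiles 23 and 77) at 4 h. List medians, over single positions, were 12 and 13. Taken singly, positions in members had median counts of 26 at 0 h and 33 at 4 h. Those in no 0 h H3K4me3 cluster had 11 and 12. The tallest position lay above the list median in 87.4% of members at 0 h and in 92.3% at 4 h. Clusters that had H3K27me3 at 1 time only held low positions, with median tallest counts of 10 for those marked at 0 h only and 11 for those marked at 4 h only. They also mostly held a single position, in 97.8% and 89.1% of clusters. The tallest count was higher at 4 h in 4087 members (88.7%) and lower in 372 (8.07%), with a median ratio of 1.28. Over all 42823 positions listed at both times the count was higher at 4 h in 82.3%, with a median ratio of 1.27, so the members' ratio was near that of the whole list.

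In most members the mark reached beyond the H3K4me3 cluster. A further H3K27me3 position lay 251 to 5000 bp outside the cluster at 0 h in 64.7% of members (63.3 to 66.1). The shares were 36.2% of clusters marked at 4 h only, 19.1% of those marked at 0 h only and 7.5% of unmarked clusters. At 4 h the shares were 72.6, 44.6, 23.4 and 9.37%, in the same order. Such flanking positions were listed at both times for 2855 members (61.9%) and at neither for 1134 (24.6%). Within the cluster, the tallest 0 h position lay in the middle 50% of the span in 78.8% of members.

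Members had lower H3K4me3 counts than unmarked clusters but were nearly as wide. Members had a median H3K4me3 count at 0 h of 51 (49 to 53), and at 4 h of 53 (51 to 55), beside 156 and 160 in unmarked clusters and 78 over all clusters at 0 h. Median width at 0 h was 2742 bp (2703 to 2779) in members and 3160 bp in unmarked clusters. The 4 h clusters that a member overlapped had a summed median width of 2832 bp (2778 to 2881). Among the 4361 members joined to exactly 1 unshared 4 h cluster, the median width was 2720 bp at 0 h and 2754 bp at 4 h, and the median ratio was 1.01 (quartiles 0.852 and 1.23). In 12512 unmarked clusters joined in the same way it was 0.963 (quartiles 0.823 and 1.12). At least 1.5-fold greater width at 4 h was seen in 419 of these members (9.61%, 8.75 to 10.5), beside 6.14% of all clusters joined in this way and 4.89% of the unmarked ones. A width lower by that factor was seen in 343 (7.87%), beside 8.27% of all. The H3K4me3 count was higher at 4 h in 54.3% of members and in 44.6% of unmarked clusters. In clusters with H3K27me3 at 0 h only the share was 55.3% (50.1 to 60.5), near that of members, and at 4 h only 42.6%.

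The share of clusters that were members was highest at intermediate H3K4me3 counts. It was 12.2% at counts of 11 to 13, reached 48.5% (46.4 to 50.6) at counts of 44 to 78, and was 2.06% at counts of 221 to 361. The low share at low counts is partly fixed by the rule. Clusters not listed at 4 h could not be members, and their median count at 0 h was 13. At counts of 11 to 13, 295 of 2420 clusters were members and 529 were unmarked. At 44 to 78 these numbers were 1036 and 1017 of 2136. Some comparisons of members with unmarked clusters are therefore also given with the unmarked clusters weighted to the members' H3K4me3 counts, in 10 classes. They are then called height-matched.

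Pol II was listed in 24.6 to 29.8% of the members and in 79.2 to 79.6% of unmarked clusters. Members with a Pol II position numbered 1133 at 0 h (24.6%, 23.3 to 25.8), 1375 at 2 h (29.8%, 28.5 to 31.2) and 1219 at 4 h (26.4%, 25.2 to 27.7). Unmarked clusters had Pol II in 79.2, 79.3 and 79.6% at these times. Members minus unmarked clusters gave -54.6 percentage points at 0 h (-56.0 to -53.2), -49.5 at 2 h (-51.0 to -48.0) and -53.2 at 4 h (-54.6 to -51.8). Height-matched, the differences were -39.3 (-40.9 to -37.6), -32.4 (-34.1 to -30.7) and -36.7 (-38.4 to -35.1). Clusters whose H3K27me3 was not listed at 4 h had Pol II in 73.8, 76.0 and 75.7%, well above the members, with height-matched differences of -26.2, -20.5 and -25.9 points whose intervals all left out 0. Clusters with H3K27me3 at 4 h only lay between, at 49.2, 54.0 and 51.5%. Neither class was matched to members by H3K27me3 count. Their median tallest counts were 10 for those marked at 0 h only and 11 for those marked at 4 h only. In members the medians were 36 at 0 h and 47 at 4 h. Members with 0 h counts of 9 to 18 had Pol II at 0 h in 45.0%. Low Pol II shares were not particular to members: the 2810 clusters not listed with H3K4me3 at 4 h, whose median H3K4me3 count at 0 h was 13, had Pol II in 31.1, 25.1 and 27.6%.

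**Figure D2:**
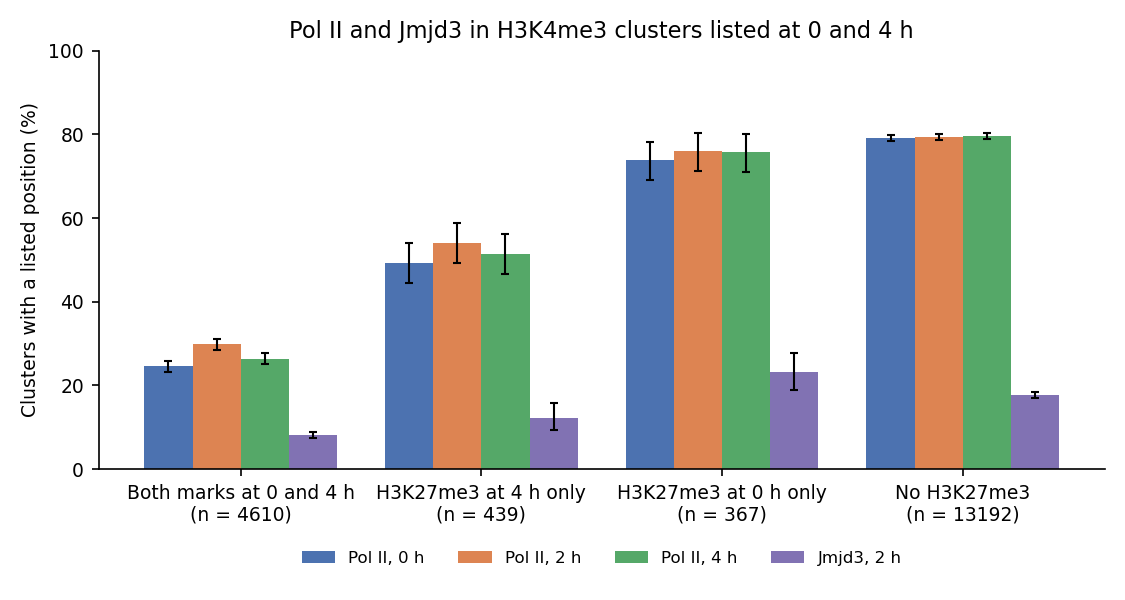
Percent of H3K4me3 clusters listed at 0 and 4 h that held a Pol II position at 0, 2 or 4 h or a Jmjd3 position at 2 h (y axis), by H3K27me3 class (x axis); bars are shares and lines exact 95% intervals. Clusters with both marks at both times have the lowest share of the 4 classes shown for each list, 24.6 to 29.8% for Pol II and 8.16% for Jmjd3.

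In all 10 classes of H3K4me3 count members had Pol II at 0 h less often than unmarked clusters, and the intervals overlapped only in the highest class. In clusters with counts of 44 to 78, Pol II at 0 h was listed in 17.2% of members and 65.0% of unmarked clusters. At counts of 129 to 167 it was listed in 63.0 and 94.2%. At counts of 221 to 361, where only 43 members lay, the shares were 93.0% (80.9 to 98.5) and 97.2% (96.4 to 97.9), and the intervals overlapped.

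**Figure D3:**
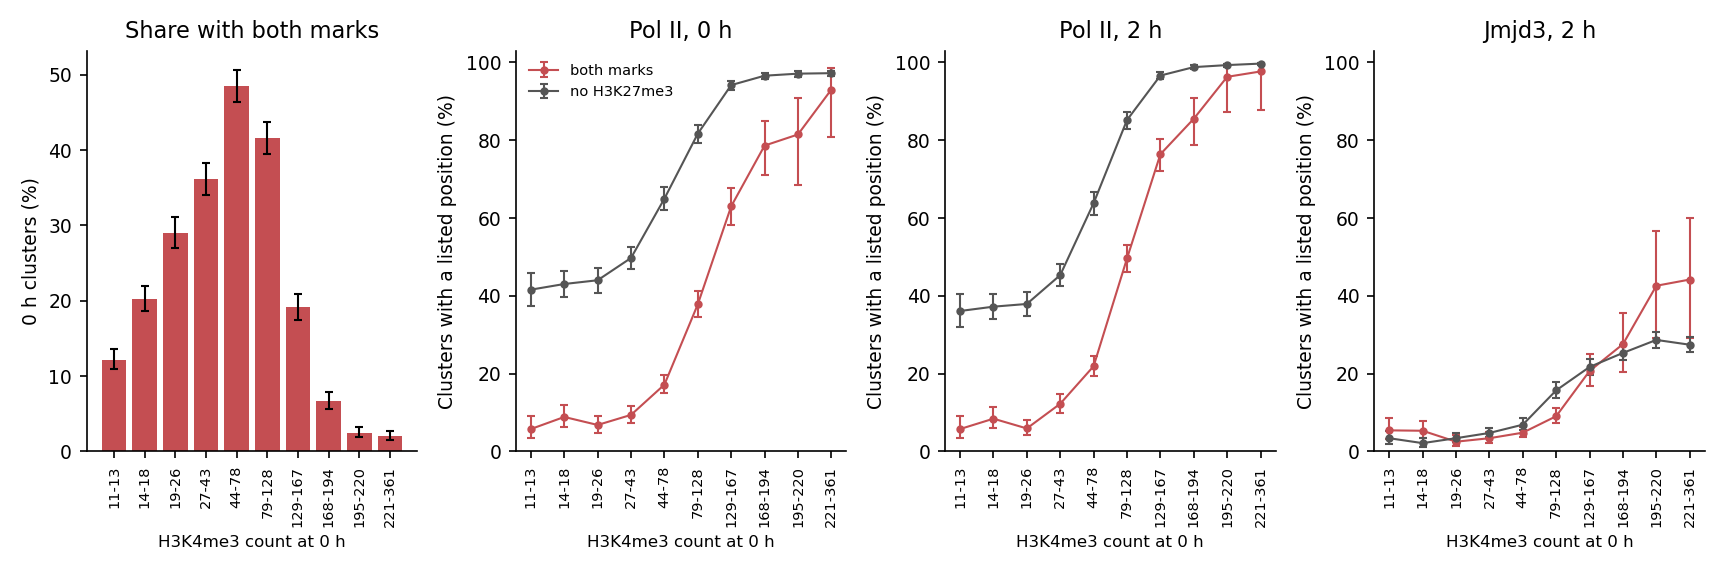
By class of H3K4me3 count at 0 h (x axis, 10 classes), from left: percent of 0 h clusters with both marks at both times, then percent with Pol II at 0 h, Pol II at 2 h and Jmjd3 at 2 h in members (red) and unmarked clusters (grey), with exact 95% intervals. Pol II shares of members are below those of unmarked clusters in all classes, and the Jmjd3 share of members is lower at counts of 79 to 128 (9.06 and 15.7%) and higher at 14 to 18 (5.32 and 2.14%), with intervals that do not overlap at either.

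Where members did hold Pol II, its counts were lower. The tallest Pol II position had a median count of 20 at 0 h, 32 at 2 h and 31 at 4 h in members, beside 39, 79 and 67 in unmarked clusters. It exceeded the median of its list in 66.5% of members with Pol II at 0 h and in 88.2% of such unmarked clusters, a difference of -21.8 points (-24.6 to -18.9). At 2 and 4 h the differences were -18.7 and -18.8 points. These differences were not height-matched, and median H3K4me3 counts at 0 h were 51 in all members and 156 in all unmarked clusters. The Pol II position nearest to the tallest H3K27me3 position at 0 h lay a median of 363 bp away.

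Most members were without listed Pol II throughout. None was listed at 0, 2 or 4 h in 3013 members (65.4%), beside 31.0% of all 0 h clusters, 13.6% of unmarked ones and 56.3% of those not listed with H3K4me3 at 4 h. Pol II was listed at all times in 890 (19.3%), beside 52.1% of all. In 231 members (5.01%, beside 5.22%) it was absent from the 0 h list and present at both later times. It was listed at 2 h only in 182 (3.95%), beside 2.19%, and at 4 h only in 51 (1.11%), beside 1.21%. In the other direction 124 members had Pol II at 0 h only (2.69%), beside 4.72%.

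Pol II at 2 h and not at 0 h was listed in 413 members (8.96%, 8.15 to 9.82), beside 7.40% of all clusters. Pol II at 0 h and not at 2 h was listed in 171 (3.71%, 3.18 to 4.30), beside 6.86%. For 4 h against 0 h the numbers were 282 gained (6.12%), beside 6.42%, and 196 lost (4.25%), beside 6.14%. These shares depend on how many members could change. Of the 3477 members without Pol II at 0 h, 11.9% had it at 2 h, beside 30.0% of unmarked clusters without it, a difference of -18.1 points (-20.2 to -16.1) and height-matched of -19.4 (-21.6 to -17.2). Of the 1133 members with Pol II at 0 h, 15.1% had none at 2 h, beside 7.74% of unmarked clusters, a difference of 7.35 points (5.20 to 9.50). Height-matched, that difference was 4.26 points (2.03 to 6.49). Weighted to the members' Pol II counts at 0 h, it was -1.85 points (-4.17 to 0.476) and its interval held 0. The 0 h Pol II list stopped early on chromosomes 13 to 18 and X, and 152 members lay beyond its last positions. Clusters beyond those positions, members or not, counted as without Pol II at 0 h. The shares of 11.9 and 30.0% include them, and the part of these stretches in that difference was not tested. Without such stretches, 366 of 4458 members (8.21%) had Pol II at 2 h and not at 0 h, beside 6.07% of all 20788 clusters outside them, and 192 (4.31%) had it at both later times only, beside 3.91%.

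Among members, Pol II was listed less often the taller the H3K27me3 position. With members divided into 4 classes by their tallest H3K27me3 count at 0 h, Pol II at 0 h was listed in 45.0% (42.2 to 47.8) at counts of 9 to 18, 28.6% at 19 to 36, 14.0% at 37 to 59 and 9.38% (7.75 to 11.2) at 60 to 191. At 2 h the shares were 50.7, 34.8, 20.1 and 12.4%. The highest class differed from the lowest by -35.6 points at 0 h (-38.9 to -32.4), and its members also had lower H3K4me3 counts, with medians of 39 and 76. Height-matched on H3K4me3, the difference was -18.9 points at 0 h (-22.1 to -15.7) and -18.8 at 2 h (-22.2 to -15.5). Matched to width, it was -43.3 at 0 h (-46.4 to -40.1). By number of positions, without regard to width, the shares did not fall steadily. Pol II at 0 h was listed in 30.8% of members with 1 position, 15.6% of those with 3 and 28.5% of those with 5 or more, whose median widths were 2302, 3392 and 6512 bp. Members with 3 or more positions differed from those with 1 by -11.9 points at 0 h (-15.0 to -8.81). With the latter weighted to the same widths the difference was -40.7 (-44.6 to -36.8), and at 2 h it was -43.2 (-47.1 to -39.4). Height-matched on H3K4me3, it was -9.60 at 0 h (-12.6 to -6.62) and -10.2 at 2 h (-13.4 to -6.97).

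**Figure D4:**
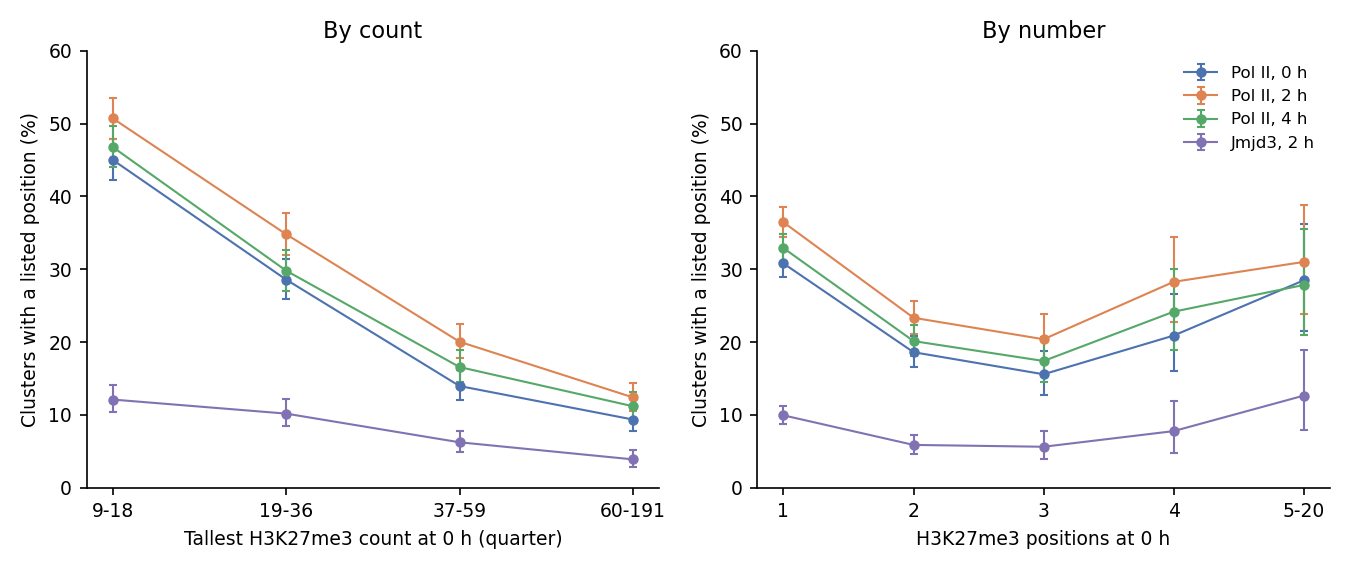
Percent of members with Pol II at 0, 2 and 4 h or Jmjd3 at 2 h (y axis), by class of their tallest H3K27me3 count at 0 h (left) and by number of H3K27me3 positions at 0 h (right), with exact 95% intervals. On the left all 4 curves are lower in each higher class, from 45.0 to 9.38% for Pol II at 0 h; on the right the curves are lowest at 3 positions.

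Members that were listed with Pol II at 2 and 4 h and not at 0 h kept H3K27me3 by the rule. The rule left out clusters whose H3K27me3 was not listed at 4 h, so the counts are given as a description. The tallest H3K27me3 count of these 231 members had a median of 29 at 0 h and 35 at 4 h, and it was higher at 4 h in 84.8% (79.6 to 89.2). Over all H3K27me3 positions listed at both times the count was higher at 4 h in 82.3%. In the 3013 members with no Pol II the tallest count was higher at 4 h in 92.8% (91.8 to 93.7), or 90.8% when weighted to the same H3K27me3 counts at 0 h. The H3K4me3 count of the 231 members had a median of 105 at 0 h and 123 at 4 h and was higher at 4 h in 71.4% (65.1 to 77.2). This stood beside 53.9% (52.1 to 55.7) of members with no Pol II and 53.1% (49.8 to 56.5) of the 890 with Pol II at all times. Weighted to the same H3K4me3 counts, the members with no Pol II stood at 46.4%. Without the chromosome ends where the 0 h Pol II list stops, the share of the gaining members was 71.9%.

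The member with the tallest Pol II position at 2 h among those gaining it was chr11:78739381-78742248. Its Pol II count was 330 at 2 h and 254 at 4 h, with no position listed at 0 h. Its H3K4me3 count was 24 at 0 h and 176 at 4 h, in a 4 h cluster of 7532 bp that it shares with another 0 h cluster. The tallest H3K27me3 count there went from 55 to 18, and the Jmjd3 count was 14. A 4 h to 0 h ratio of at most 0.5 in the tallest H3K27me3 count was found in 6 of 4610 members (0.130%). The ratio of this member, 0.327, was the lowest but 1, a rank looked up after its values were seen. How rare such ratios were is partly fixed by the rule. Members needed a listed 4 h position, and the lowest count in that list was 10. Those with low 0 h counts therefore could not reach 0.5. The next by Pol II count at 2 h was chrX:165332727-165340741, with Pol II counts of 261 and 238 at 2 and 4 h. It lies beyond the last 0 h Pol II position of its chromosome.

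Of the other members named by that rule, chr9:107153458-107156531 had Pol II counts of 203 at 2 h and 30 at 4 h, and its H3K4me3 count was 97 at 0 h and 217 at 4 h. Its tallest H3K27me3 count was 18 at 0 h and 12 at 4 h. At chr3:107885991-107889856 the Pol II counts were 177 and 62, the H3K4me3 counts 138 and 185 and the H3K27me3 counts 13 and 21. At chr13:42311378-42314983 Pol II stood at 156 and 209, H3K4me3 at 85 and 160 and H3K27me3 at 14 and 17. All of these held a Jmjd3 position, and their H3K27me3 counts of 12 to 21 were below the members' medians at both times.

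Members with Pol II at 0 h only had median H3K4me3 counts of 61 at 0 h and 59 at 4 h, and the 5 with the tallest Pol II had 15 to 27 at 0 h and 12 to 33 at 4 h. The tallest such Pol II position, a count of 53, was in chr11:87577929-87582726, whose H3K4me3 count was 23 at 0 h and 14 at 4 h and whose tallest H3K27me3 count was 77 and 78. The next were chr7:142180760-142182456, with a Pol II count of 44, and chr8:122330716-122334048, with 33. H3K27me3 counts there were 46 at 0 h and 65 at 4 h, and 86 and 104. None of them held Jmjd3.

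Jmjd3 was listed in 376 members (8.16%, 7.38 to 8.98) and in 17.7% (17.1 to 18.4) of unmarked clusters, a difference of -9.56 points (-10.6 to -8.54). Height-matched, the difference was -1.32 points (-2.33 to -0.308). Its direction was not the same in every class of H3K4me3 count. Members had the lower share at counts of 79 to 128 (9.06 and 15.7%) and the higher share at 14 to 18 (5.32 and 2.14%). At 221 to 361 the shares were 44.2% (29.1 to 60.1) in members and 27.4% (25.5 to 29.5) in unmarked clusters, with intervals that overlapped. Clusters whose H3K27me3 was not listed at 4 h had Jmjd3 in 23.2%. Members differed from them by -15.0 points (-19.4 to -10.6), and height-matched by -4.08 points (-8.41 to 0.255), an interval that held 0. Matched to width the difference was -10.7 points (-14.8 to -6.60), and matched to height and width together -7.10 (-11.7 to -2.52). None of these was matched to H3K27me3 count, whose median tallest value at 0 h was 36 in members and 10 in those clusters. Members with 0 h counts of 9 to 18 had Jmjd3 in 12.1%. Clusters with H3K27me3 at 4 h only had Jmjd3 in 12.3%, and members differed from them by -4.14 points (-7.32 to -0.972). Height-matched, that difference was -0.274 (-3.04 to 2.49), and matched to height and width -1.19 (-3.94 to 1.55), intervals that held 0. Matched to width alone it was -5.38 (-8.70 to -2.06). The clusters not listed with H3K4me3 at 4 h had Jmjd3 in 2.53% (1.98 to 3.18), below the members. Jmjd3 in members went with Pol II. It was listed in 21 of the 3013 members with no Pol II (0.697%, 0.432 to 1.06), in 29.7% of members with Pol II at all times and in 24.2% of those with Pol II at 2 and 4 h and not at 0 h. In unmarked clusters with that last pattern the share was 17.5%, a difference of 6.75 points (0.495 to 13.0), which height-matched was 5.09 (-1.97 to 12.1).

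Members with Jmjd3 still had H3K27me3 at 4 h by the rule. Their tallest H3K27me3 count was higher at 4 h in 77.9% (73.4 to 82.0), beside 89.6% of members without Jmjd3, or 86.5% when those were weighted to the same 0 h counts. Fewer positions at 4 h were listed in 12.5% of members with Jmjd3 and 16.04% of those without. By the rule a member with 1 position at 0 h could not have fewer. Such members were 222 of the 376 with Jmjd3 and 2230 of all 4610, so nothing is read from these shares. The H3K4me3 count of members with Jmjd3 had a median of 117 at 0 h, beside 48 in those without. It was higher at 4 h in 63.0% (57.9 to 67.9), beside 53.5%.

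A small set of narrow members stood apart. Of the 265 members at most 1322 bp wide, the upper bound of the lowest width class of 10, 24.5% held Jmjd3 (19.5 to 30.2), beside 1.26% of unmarked clusters of that width and 7.16% of wider members. In all, 264 members (5.73%) were listed by all 8 libraries, 44 of them in this narrow class. Those 44 had a median width of 802 bp and median counts of 25 for Jmjd3, 36 for H3K27me3 at 0 h and 30 for H3K4me3 at 0 h, where the 220 wider ones had 11, 19 and 146. The tallest H3K27me3 position of all members at 0 h and the tallest Jmjd3 position were in 1 of these narrow clusters, chr5:146564982-146565860, with H3K27me3 counts of 191 at 0 h and 193 at 4 h, a Jmjd3 count of 96 and Pol II counts of 38, 66 and 69 at 0, 2 and 4 h. Similar values stood at chr16:11057400-11057999, with H3K27me3 counts of 159 and 157, a Jmjd3 count of 26 and Pol II counts of 47, 124 and 87. The part of such sites, where every antibody had a position, in the Jmjd3 result was not tested. Without clusters of that width, Jmjd3 in members differed from unmarked clusters by -11.7 points.

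The members with most H3K27me3 positions were also the widest and lay side by side on chromosome 11. Clusters chr11:3027927-3049163, chr11:3049248-3074887 and chr11:3080585-3100327 held 19, 20 and 15 H3K27me3 positions at 0 h and 19, 22 and 15 at 4 h. They also held 17, 25 and 16 Pol II positions at 0 h and 20, 23 and 15 Jmjd3 positions. All of the 5 members in that stretch of 73813 bp were listed by every library. The next by number of positions, chr2:164638137-164647906 and chr11:33096332-33105436, held 10 each at 0 h and 9 each at 4 h, with no Pol II or Jmjd3.

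The largest ratios of 4 h to 0 h width came from joined clusters. The 5 largest, from 5.26 to 16.2, were all in members whose 4 h cluster was shared with another 0 h cluster. The smallest, 0.149, was at chr16:10888165-10893962, where the H3K4me3 cluster was 5798 bp wide at 0 h and 866 bp at 4 h with counts of 36 and 41. Of the 5 members with the tallest H3K4me3 counts, chr6:47575889-47581446 had a count of 361 at 0 h and 365 at 4 h, with 5 and 4 H3K27me3 positions and Pol II counts of 14, 14 and 13. In the other 4, H3K4me3 counts were 265 to 272 and a single H3K27me3 position was listed at each time.

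The X chromosome held far more members per cluster than any autosome. On X, 314 of 604 clusters (52.0%, 47.9 to 56.0) were members, where the 19 autosomes ranged from 17.1% on chromosome 16 to 24.5% on chromosome 18 and gave 20.6% in all. The difference was 31.3 points (27.3 to 35.4) and, height-matched, 19.8 (15.7 to 23.9). The H3K27me3 of members on X was lower and less extended. Its tallest count at 0 h had a median of 14 (13 to 15), beside 39 (38 to 40) on autosomes, exactly 1 position was listed in 68.5% and 46.9%, and flanking positions in 32.8% and 67.1%. Pol II was listed more often, in 56.1, 64.3 and 60.5% of members on X at 0, 2 and 4 h and in 22.3, 27.3 and 23.95% on autosomes. The difference at 0 h was 33.8 points (28.1 to 39.4), and 22.5 (16.6 to 28.4) when weighted to the same H3K27me3 classes. Without the chromosome ends it was 38.3. Jmjd3 was listed in 9.55 and 8.05%, a difference of 1.5 points (-1.85 to 4.85) whose interval held 0. Members on X were 6.81% of all, and on autosomes alone Pol II at 0 h was listed in 22.3% of members in place of 24.6%.

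**Figure D5:**
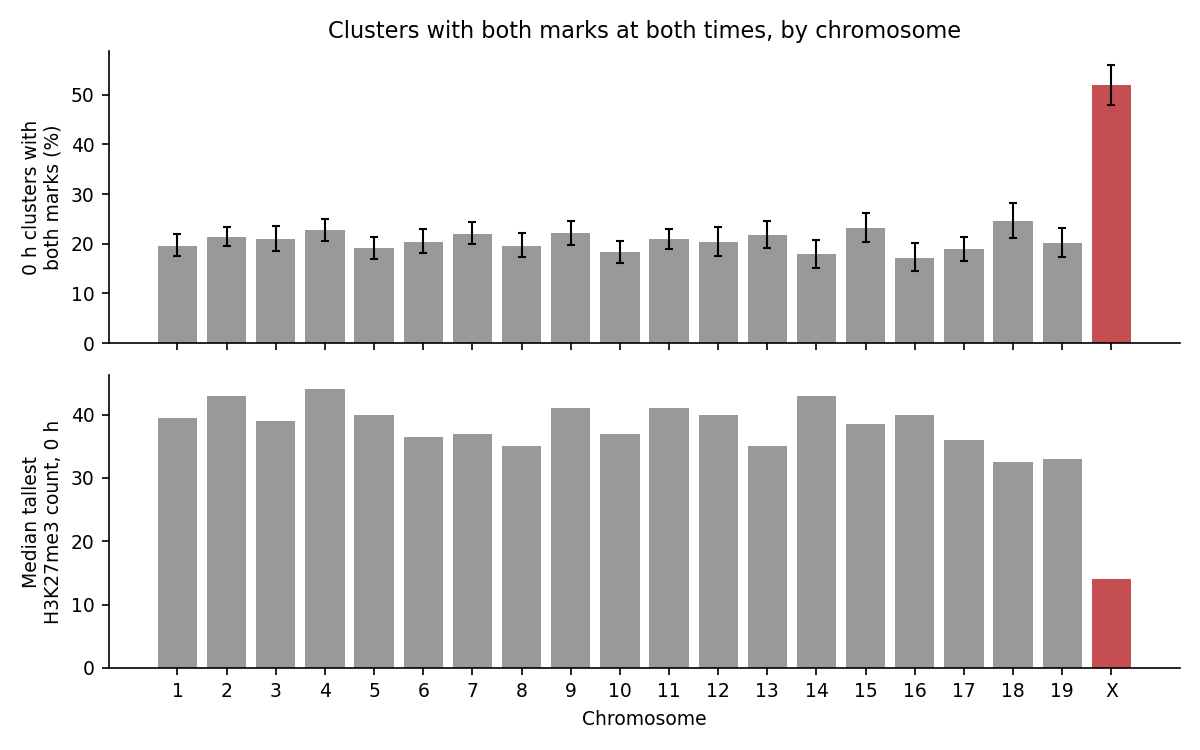
Top, percent of 0 h H3K4me3 clusters that carried both marks at both times on each chromosome (x axis), with exact 95% intervals; bottom, median over members of the tallest H3K27me3 count at 0 h. The X chromosome (red) has the highest share, 52.0%, and the lowest median count, 14.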

How the data were processed

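The authors deposited 1 peak list for each of 8 libraries. The only value, per the file headers, is a whole-number overlap count, a signal that the authors gave with no stated scaling to depth or to a control. The H3K4me3 lists hold spans, and the other lists hold single positions. The submitters' processing notes name mm8 as the build. How tags were aligned and peaks called, and against which control, is not given in the sources used here. Per the labels, fragments of about 200 to 300 bp gave above 10000000 unique tags for every library.

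Positions were widened by 250 bp to each side, and intervals that shared at least 1 bp overlapped. Members, comparison classes and naming rules were chosen with earlier results of these data known. Regions were named as the 5 members highest by H3K27me3 positions, H3K27me3, H3K4me3, Jmjd3 or gained or lost Pol II count, width, and largest or smallest width ratio, and not all 5 are printed. Lists of gene families were not run, as no mm8 annotation was used. Unmarked clusters were weighted to the members' classes for matching. Differences of shares numbered 180, with intervals not adjusted for that number. Alternatives were other overlaps and windows, tall peaks, lists of equal length, autosomes, no chromosome ends and matching. Those without the narrowest clusters and with combined matching were added after seeing the data.

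Tested on simulated data, the overlap step found 181 of 181 planted members among 3000 clusters and 0 others, and counts for 7 of 7 lists were identical with bedtools 2.31.1. Values were computed with scipy 1.17.1, pandas 2.3.3 and numpy 2.4.6 under Python 3.11.15, and drawn with matplotlib 3.10.9.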

Additional observations from a re-analysis of the deposited data

How the results depend on the processing

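Of 184 values, from 20 results under up to 11 alternatives each, 160 met the criterion of stability: a share or median within the reported interval, a count within 1.5 times, or a difference with the same sign whose interval left out 0. All 8 differences of shares kept their sign, but their size moved. Matched to H3K4me3 height, Jmjd3 in members minus unmarked clusters went from -9.56 to -1.32 points (to -3.17 with width too), and Pol II at 2 h minus clusters marked at 0 h only from -46.2 to -20.5. Using only peaks at or above the median of their own list left 960 members in place of 4610, with medians of 1 H3K27me3 position at 0 h and 1 at 4 h and widths of 3570 bp at 0 h and 3591 bp at 4 h. Pol II was then listed in 39.4, 53.3 and 47.0% at 0, 2 and 4 h, Pol II at 2 h and not 0 h in 17.2% and Jmjd3 in 15.2%. The Jmjd3 difference from clusters whose H3K27me3 was not listed at 4 h became -7.24 points, and -4.08 when matched to H3K4me3 height, with intervals that held 0; matched to width (-10.7) or to both (-7.10) the interval left out 0. An overlap of at least 50% gave a median of 1 H3K27me3 position at 0 h, as did 100 bp per side. More H3K27me3 positions at 4 h were listed in 19.1% with that overlap, 19.9% with 100 bp, 25.9% with 500 bp and 18.3% with lists of equal length. On autosomes Pol II was listed in 22.3, 27.3 and 23.95%. Without the narrowest clusters (up to 1322 bp) median widths were 2815 and 2927 bp and the Jmjd3 share was 7.16%. No paired analysis was possible because each group has 1 library. Unknown depth limits every comparison of counts between times.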

Other observations

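Some members lay in rows. With members no more than 10 kb apart joined, the 4610 members formed 4096 groups, of which 3720 held 1 member, 291 held 2, 61 held 3 and 24 held 4 or more. The largest group, 12 members over chr6:52132956-52204967, held 38 H3K27me3 positions at 0 h and 36 at 4 h, and no member of it was listed with Pol II at any time or with Jmjd3. The next, 9 members over chr2:74454945-74513632, held 20 and 17 positions, again with no Pol II or Jmjd3. By contrast, all 5 members over chrX:165329833-165353294 had Pol II at 2 and 4 h and Jmjd3, in a stretch beyond the last 0 h Pol II position of that chromosome. Another member was within 10 kb for 19.3% of members, and another unmarked cluster for 32.6% of unmarked clusters.

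Among the members whose tallest H3K27me3 count was lowest at 4 h relative to 0 h, listed after their values were seen, the first was chr12:70074878-70078907. Its count was 72 at 0 h and 12 at 4 h, with Pol II at 79, 105 and 97 at 0, 2 and 4 h and H3K4me3 at 148 and 133. At chr11:9017047-9020047 the H3K27me3 count was 26 and 11, Pol II stood at 14, 182 and 262, H3K4me3 at 122 and 248, and Jmjd3 at 37. At chr5:120971710-120973733 the H3K27me3 count was 70 and 25, with no Pol II listed at any time and no Jmjd3. A 4 h to 0 h ratio of at most 0.5 was found in 27 of 42823 positions listed at both times (0.0631%). Positions with low counts at 0 h could not reach it, since the lowest count of the 4 h list was 10.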
